A study of Tribolium castaneum with 8 samples.

Results

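The genes described here are the serpins and other protease inhibitors of the red flour beetle Tribolium castaneum. They were chosen by name: every gene of the 4 expression tables whose best protein match is described as a serpin, a protease or proteinase inhibitor, an elastase inhibitor, an antichymotrypsin or an antitrypsin. This gave 31 of the 14422 genes listed in at least 1 library, of which 28 are named serpins and 3 are other inhibitors. The 3 are a pacifastin-related serine protease inhibitor (TC015478), a protease inhibitor-like protein (TC001031) and a gene described as metalloproteinase inhibitor 3 (TC002305). The serpin label was borne out by another field of the tables, since all 28 serpins, and 0 of the 3 others, also carry a serpin match in the KEGG annotation. In TC005065 that serpin match came after a match to a WD repeat-containing protein.

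Serpins are protease inhibitors that work once: the target protease cuts an exposed reactive loop and is then trapped in a covalent complex. Insect serpins are best known from the haemolymph, where they restrain the chains of clip-domain serine proteases that activate Toll signalling and the prophenoloxidase of melanization. Others act in development, and in Drosophila some are transferred in the seminal fluid. Pacifastins are small arthropod inhibitors of serine proteases, and tissue inhibitors of metalloproteinases block the enzymes that remodel extracellular matrix.

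The study set whole bodies of 4 life stages side by side in the strain GA-1, reared at 30 °C on whole wheat flour with 5% yeast. The groups are embryos of 3 days, late larvae of about 20 days, pupae of 3 days and adults of 3 days, with 1 polyadenylated RNA library each. Neither the sex of the animals nor the number pooled for RNA is given in the sources used here. The companion bisulfite libraries of the same stages were not analysed here. The libraries held 3.24 M unique reads in genes (embryo), 3.58 M (larva), 3.67 M (pupa) and 3.09 M (adult). Levels are RPKM, unique reads scaled by the length of the gene model and by the library's total. They are shares of a library's reads, so differences between libraries depend on how the libraries are scaled. Values under other scalings are given at the end. With 1 library a stage there is no replicate error and no test. The bracketed ranges are 95% intervals from the read counts and cover counting error only. In whole bodies, fewer cells of a type and less RNA per cell cannot be told apart.

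Tissue markers differed widely between the libraries. The 11 fat body markers (hexamerins, arylphorin, vitellogenins, apolipophorins) summed to 558 RPKM for embryos, 55940.5 for larvae, 4657 for pupae and 1926 for adults, with 10 of 11 listed in the larva and all 11 elsewhere. The 21 gut markers summed to 269 RPKM for embryos, 7010 for larvae, 716 for pupae and 555 for adults, with 14, 20, 14 and 21 of them listed. Both lists were thus highest in the larva. The 4 muscle markers summed to 2796, 4012, 3113 and 12993 RPKM in the same order, and the 2 male germ line markers to 13.5, 31.4, 30.5 and 227, both lists being highest in the adult. The 3 haemocyte markers, of which 2 reached 1 RPKM in each library, summed to 160, 92.6, 147 and 145 RPKM. The 2 ovary markers summed to 15.7, 30.1, 33.8 and 23.7. Both sums moved less, but they rest on too few genes to show that these tissues stayed even. How much of any inhibitor's difference goes with tissue amounts was not tested.

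Taken as a set, the inhibitors were more abundant in the larval and pupal libraries than in the embryo and adult libraries. Their RPKM summed to 917 for embryos, 3046 for larvae, 2703 for pupae and 1224 for adults. They took 0.128% (0.124 to 0.132) of all unique reads in the embryo library and 0.375% (0.368 to 0.381) in the larval library. In the pupal library they took 0.358% (0.352 to 0.364), and in the adult library 0.151% (0.146 to 0.155). The median member stood at 12.6 RPKM for embryos, 63.9 for larvae, 31.1 for pupae and 29.2 for adults. Levels of at least 100 RPKM were reached by 3 members for embryos, 11 for larvae, 9 for pupae and 2 for adults.

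**Figure D1:**
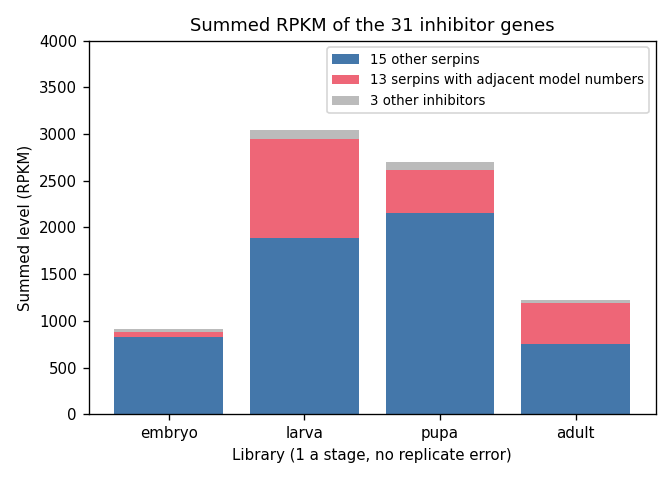
Summed RPKM of the 31 inhibitor genes in each library, stacked as the 15 other serpins (blue), 13 serpins with adjacent model numbers in the description field (red) and 3 other inhibitors (grey). The bars reach 917, 3046, 2703 and 1224 RPKM, and the red part is largest in the larva, at 1066 RPKM, and smallest in the embryo, at 55.6 RPKM.

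More members could be read in the adult library than in any other, although their summed level there was low. All 31 were listed in the adult library and 30 reached 1 RPKM, whereas 29 were listed for embryos, 24 for larvae and 29 for pupae. The adult library also listed the most genes in all, 13420 against 12667, 12594 and 12902 from embryo to pupa. The adult library also spread its inhibitor reads most evenly: its 3 most abundant members held 27.0% of the summed level, against 56.3% for embryos, 41.0% for larvae and 51.1% for pupae. Serpin 1 (TC000760) was the most abundant member in the embryo, larval and pupal libraries, and serpin 7 (TC005740) in the adult library. Serpin 17 (TC005749) was the only member under 1 RPKM in all 4 libraries, with a single adult read at 0.436 RPKM and none elsewhere.

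Sorted by the library of their highest level, the 30 members with at least 1 RPKM somewhere fell into 12 larval, 10 pupal, 7 adult and 1 embryonic. Among all 13257 genes with at least 1 RPKM, 15.7% were highest in the larva, 16.9% in the pupa, 25.4% in the adult and 42.0% in the embryo. The members' share was above that of all genes for the larva and the pupa, close to it for the adult and far under it for the embryo, the most common library of highest level among all genes. For TC030077 and TC013310, whose larval and pupal levels were close, the highest library changed from pupa to larva under both other scalings of the libraries.

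**Figure D2:**
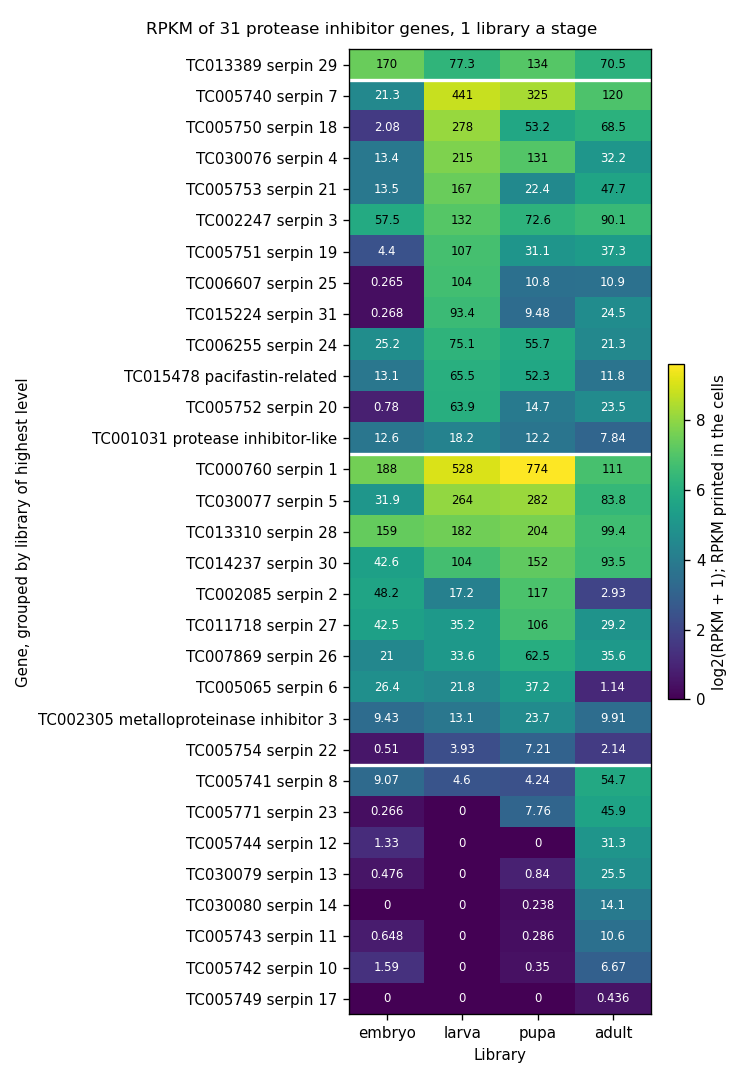
RPKM of each of the 31 genes (rows, grouped by the library of highest level) in the 4 libraries (columns), with colour on a log2(RPKM + 1) scale and the RPKM printed in each cell. Dark cells are low. The larval group is dark in the embryo for several serpins, the pupal group includes both even genes and serpins 2, 6 and 22 with dark cells, and the adult group is near 0 in the larva, where 7 genes, TC005749 among them, have no read.

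Among serpins highest in the larval library, a first kind stayed high in the pupa. Serpin 7 (TC005740) stood at 21.3 RPKM for embryos, 441 for larvae, 325 for pupae and 120 for adults. Serpin 4 (TC030076) ran at 13.4, 215, 131 and 32.2 RPKM in the same order, and serpin 24 (TC006255) at 25.2, 75.1, 55.7 and 21.3. In all of these the pupal level was within 2-fold of the larval level. Serpin 3 (TC002247) varied the least of the serpins highest in the larva, with 57.5, 132, 72.6 and 90.1 RPKM, a highest level 2.30 times its lowest. The pacifastin-related inhibitor TC015478 belongs with them, at 13.1, 65.5, 52.3 and 11.8 RPKM.

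A second kind stood out in the larval library and was lower in the pupa. Serpin 18 (TC005750) stood at 2.08 RPKM for embryos, from 8 reads, 278 for larvae, 53.2 for pupae and 68.5 for adults. Serpin 21 (TC005753) was at 13.5, 167, 22.4 and 47.7 RPKM, and serpin 19 (TC005751) at 4.40, 107, 31.1 and 37.3. Like the 3 that follow, these 3 had their second highest level in the adult, not the pupa. For serpins 19 and 25 adult and pupa as deposited did not differ beyond counting error, with ratios of 1.20 (0.939 to 1.53) and 1.01 (0.641 to 1.58). After median-ratio rescaling the adult stood 0.47 and 0.22 above the pupa on the log2 scale. Serpin 20 (TC005752) had 3 embryo reads and stood at 0.780, 63.9, 14.7 and 23.5 RPKM. Serpin 25 (TC006607) and serpin 31 (TC015224) were close to absent from the embryo, with 1 read each. Serpin 25 ran at 0.265, 104, 10.8 and 10.9 RPKM and serpin 31 at 0.268, 93.4, 9.48 and 24.5. The larval level of serpin 25 was 9.54 times its second highest, the widest such gap among the 12 members highest in the larva.

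Members highest in the pupal library were mostly expressed at every stage. Serpin 1 (TC000760) was at 188 RPKM for embryos, 528 for larvae, 774 for pupae and 111 for adults, and its pupal level ranked 122 among all genes of that library. Serpin 5 (TC030077, Serpin5 in RefSeq) ran at 31.9, 264, 282 and 83.8 RPKM. Its larval and pupal levels as deposited did not differ beyond counting error, with a ratio of 1.07 (0.987 to 1.15). After median-ratio rescaling the pupa was the lower of these libraries, at -0.36 on the log2 scale. Serpin 28 (TC013310) stood at 159, 182, 204 and 99.4 RPKM, the narrowest range among the 24 members listed in every library, a factor of 2.05. Serpin 30 (TC014237) was at 42.6, 104, 152 and 93.5 RPKM, and serpin 26 (TC007869) at 21.0, 33.6, 62.5 and 35.6. In all 5 the adult library still held 35.6 RPKM or more. Serpin 22 (TC005754) was the least abundant member highest in the pupa, at 0.510, 3.93, 7.21 and 2.14 RPKM.

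Serpins 2 and 6, also highest in the pupa, were low in the adult. Serpin 2 (TC002085) stood at 48.2 RPKM for embryos, 17.2 for larvae, 117 for pupae and 2.93 for adults, a course that was high, low, high and low. Serpin 6 (TC005065) was at 26.4, 21.8, 37.2 and 1.14 RPKM, the last from 6 reads. Serpin 27 (TC011718) was at 42.5, 35.2, 106 and 29.2 RPKM, and was itself the median member in the adult library. Embryo and larva did not differ beyond counting error in serpins 6 and 27. Their larval to embryonic ratios were 0.826 (0.648 to 1.05) and 0.828 (0.676 to 1.01). After median-ratio rescaling the larva was the higher of these libraries for both, by 0.35 and 0.36 on the log2 scale. The model of serpin 2 has 3534 bases, against 1746 for the next longest member, so its level is an average over a much longer model.

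The adult library alone held most reads of a group of 7 serpins. Serpin 8 (TC005741) was the most abundant of them, at 9.07 RPKM for embryos, 4.60 for larvae, 4.24 for pupae and 54.7 for adults. Serpin 23 (TC005771) had 1 embryo read and 0 larval reads, then 7.76 RPKM in the pupa and 45.9 in the adult. Serpin 12 (TC005744) had 5 embryo reads, none in the larva or the pupa, and 31.3 RPKM in the adult from 112 reads. The remaining 4 had at most 4 reads in any library before the adult. Serpin 13 (TC030079) stood at 25.5 RPKM in the adult, serpin 14 (TC030080) at 14.1, serpin 11 (TC005743) at 10.6 and serpin 10 (TC005742) at 6.67. In the larval library, 6 of the 7 had 0 reads, where a count of 3 reads would give 0.724 RPKM for serpin 23 and 1.29 for serpin 13. Male germ line and muscle markers were also highest in the adult library, as given above, and their part in the adult levels of these serpins was not tested.

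Serpin 29 (TC013389) was the only member highest in the embryo library. It stood at 170 RPKM for embryos, 77.3 for larvae, 134 for pupae and 70.5 for adults, so it was moderately high in all of them. With serpin 1 and serpin 28 it made up the 3 members above 100 RPKM in the embryo.

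The 2 remaining inhibitors outside the serpin family stayed at or under 23.7 RPKM in every library. The metalloproteinase inhibitor 3 gene (TC002305) ran at 9.43, 13.1, 23.7 and 9.91 RPKM from embryo to adult, resting on 19 to 54 reads a library. The protease inhibitor-like gene (TC001031) stood at 12.6, 18.2, 12.2 and 7.84 RPKM, with 13 to 35 reads. As deposited, its neighbouring libraries did not differ beyond counting error at any of the 3 steps, the larval to embryonic ratio being 1.44 (0.823 to 2.58). After median-ratio rescaling the larva stood 1.10 above the embryo on the log2 scale, past 2-fold.

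The first step compared the larval with the embryo library. Of the 31 members, 26 had at least 1 RPKM in 1 of the 2 libraries, and 5 were too low to be compared. On the log2(RPKM + 1) scale 15 of the 26 were at least 2-fold higher in the larva and 4 at least 2-fold lower. Of all 12179 genes compared, 18.6% were higher and 34.2% lower. The members' share was well above that of all genes on the higher side and under it on the lower side. Serpins 20, 22, 25 and 31, under 1 RPKM in the embryo, were compared only through their larval level and could not be called lower. Serpins 10 and 12 had 0 larval reads and could not be called higher. The members' median log2 ratio was 1.37 and that of all genes -0.62. After median-ratio rescaling 18 members were higher and 2 lower, beside 2996 higher and 2042 lower of all genes, and the medians were 1.99 and -0.01.

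The largest differences at this step lay in serpins nearly absent from the embryo. Serpin 25 (TC006607) had 1 embryo and 431 larval reads, a ratio of 391 (69.8 to 15478), and serpin 31 (TC015224) 1 and 384 reads, a ratio of 348 (62.1 to 13794). Serpin 18 (TC005750) rested on 8 embryo reads and was 134-fold higher (67.9 to 311), and serpin 20 (TC005752) was 81.9-fold higher (27.7 to 399.8). Their intervals are wide because few embryo reads stand behind them, but no lower end is under 27.7-fold. Better supported were serpin 19 (TC005751), 24.3-fold higher (15.03 to 42.1), serpin 7 (TC005740), 20.7-fold (16.6 to 26.2), and serpin 4 (TC030076), 16.1-fold (12.3 to 21.3). Serpin 21 (TC005753) was 12.4-fold higher (9.54 to 16.4) and serpin 5 (TC030077) 8.27-fold (6.94 to 9.93). The pacifastin-related TC015478 was 5.01-fold higher (3.13 to 8.40).

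Other members were higher by smaller factors at the same step. Serpin 1 (TC000760) was 2.80-fold higher in the larva (2.57 to 3.07), serpin 24 (TC006255) 2.98-fold (2.36 to 3.78), serpin 30 (TC014237) 2.44-fold (2.04 to 2.93) and serpin 3 (TC002247) 2.30-fold (1.97 to 2.69). The interval of serpin 3 crosses 2-fold. Serpin 22 (TC005754) had 2 embryo and 17 larval reads, a larger ratio of 7.71 with a wide interval (1.83 to 68.8). On the lower side, serpin 2 (TC002085) was 2.80-fold lower in the larva (2.39 to 3.29) and serpin 29 (TC013389) 2.20-fold (1.94 to 2.49). Both were under 2-fold after median-ratio rescaling, at -0.81 and -0.49 on the log2 scale. The other 2 counted as lower, serpin 10 (TC005742) and serpin 12 (TC005744), had 4 and 5 embryo reads and 0 larval reads, which allows only at least 1.47-fold and at least 1.84-fold lower against a floor of 3 larval reads.

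**Figure D3:**
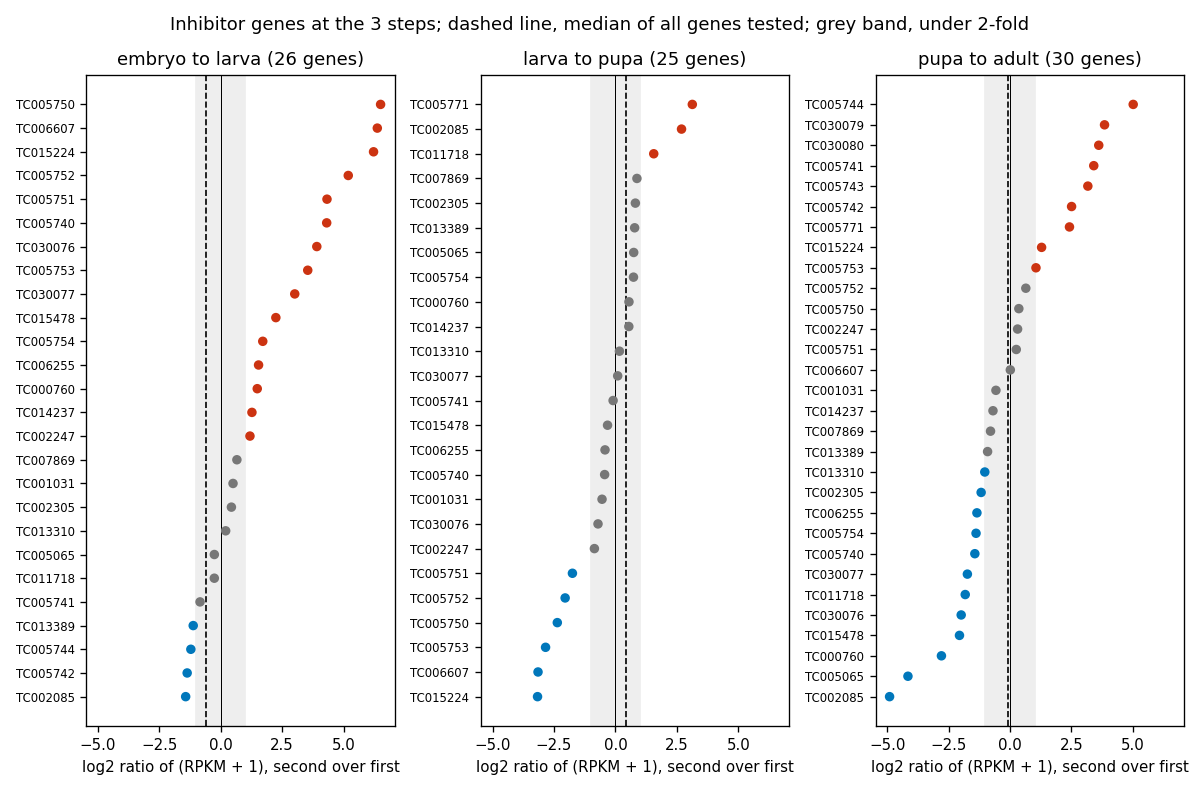
log2 ratio of (RPKM + 1), second library over first, for each member compared at each step, with red for at least 2-fold higher, blue for at least 2-fold lower and grey for members within 2-fold. The dashed lines mark the median of all genes compared, at -0.62, 0.43 and -0.09. The larval step has 15 red points of 26, the pupal step 3 of 25 and the adult step 9 of 30.

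The next step compared the pupal with the larval library. Of 25 members compared, 3 were at least 2-fold higher in the pupa, 6 at least 2-fold lower and 16 within 2-fold. Of all 12280 genes compared, 22.7% were higher and 14.2% lower. After median-ratio rescaling the members' counts were 3 and 8, and those of all genes 1714 higher and 2281 lower. The members' median was -0.09 and that of all genes 0.43 on the log2 scale.

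The 6 members lower in the pupa are the same serpins that make up the second kind above. That kind was drawn up by this course, so the match is no separate result. Serpin 31 (TC015224) was 9.86-fold lower (7.11 to 14.0), serpin 25 (TC006607) 9.62-fold (7.09 to 13.3) and serpin 21 (TC005753) 7.46-fold (6.12 to 9.17). Serpin 18 (TC005750) was 5.24-fold lower (4.55 to 6.05), serpin 20 (TC005752) 4.35-fold (3.30 to 5.80) and serpin 19 (TC005751) 3.44-fold (2.84 to 4.201). Each of the 6 had also been at least 2-fold higher in the larva than in the embryo. The 21 gut markers had 17 of 18 higher at the embryo to larva step and 14 of 18 lower at the larva to pupa step. The 11 fat body markers had 9 of 11 higher and 5 of 10 lower, beside 18.6% and 14.2% of all genes at these steps. The part of both marker lists in the course of these serpins was not tested.

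The 3 serpins higher in the pupa were of different kinds. Serpin 2 (TC002085) stood 6.78-fold above its larval level (5.88 to 7.85) and serpin 27 (TC011718) 3.00-fold (2.54 to 3.56). Serpin 23 (TC005771) went from 0 larval reads to 33 pupal reads, at least 10.7-fold higher against a floor of 3 reads. Serpin 3 (TC002247) and serpin 4 (TC030076), 1.82-fold (1.59 to 2.09) and 1.64-fold (1.48 to 1.81) lower as deposited, passed 2-fold after median-ratio rescaling, at -1.31 and -1.16 on the log2 scale.

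The last step compared the adult with the pupal library. Of 30 members compared, 9 were higher by 2-fold or more in the adult, 12 lower by as much and 9 within 2-fold. Of all 12713 genes compared, 22.8% were higher and 15.6% lower. The members' share on the higher side was thus near that of all genes. Serpins 10 to 14, which make up 5 of the 9, were under 1 RPKM in the pupa and were compared only through their adult level, so they could not be counted as lower. The members' median was -0.63 and that of all genes -0.09 on the log2 scale.

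The members lower in the adult include the abundant serpins of larva and pupa. Serpin 1 (TC000760) was 6.99-fold lower (6.27 to 7.81), serpin 4 (TC030076) 4.06-fold (3.37 to 4.93), serpin 5 (TC030077) 3.36-fold (2.99 to 3.79) and serpin 7 (TC005740) 2.71-fold (2.44 to 3.03). The largest differences were those of serpin 2 (TC002085), 39.8-fold (28.1 to 58.4), and serpin 6 (TC005065), 32.6-fold (14.8 to 89.8) on 6 adult reads. Serpin 27 (TC011718) was 3.63-fold lower (3.00 to 4.41) and the pacifastin-related TC015478 4.43-fold (2.66 to 7.80). The remaining ones were serpin 24 (TC006255), 2.62-fold lower (2.02 to 3.43), serpin 22 (TC005754), 3.36-fold (1.52 to 8.44) on 8 adult reads, the metalloproteinase inhibitor 3 gene (TC002305), 2.39-fold (1.39 to 4.27), and serpin 28 (TC013310), 2.05-fold (1.84 to 2.29). TC002305 and TC013310 came under 2-fold after median-ratio rescaling, at -0.97 and -0.81 on the log2 scale.

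The members higher in the adult were the group of 7 described above together with serpin 21 and serpin 31. Serpin 12 (TC005744) went from 0 to 112 reads, at least 44.4-fold higher. Serpin 8 (TC005741) rested on 18 pupal and 195 adult reads and was 12.9-fold higher (7.95 to 22.2), and serpin 23 (TC005771) was 5.91-fold higher (4.05 to 8.88). Serpin 13 (TC030079) was 30.3-fold higher (7.98 to 257) on 2 pupal reads. Serpin 14 (TC030080), serpin 11 (TC005743) and serpin 10 (TC005742) had 1 pupal read each and 50, 31 and 16 adult reads. Serpin 31 (TC015224) and serpin 21 (TC005753) stood between their pupal and larval levels, 2.59-fold (1.76 to 3.86) and 2.13-fold (1.68 to 2.70) above the pupa.

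Many of the serpins carry neighbouring gene model numbers. Each gene has, in a description field of its own, the number of the gene model behind it, which for most members is also the number in the gene name. By these model numbers 13 serpins follow each other with gaps of at most 5, from 5740 to 5754, a run that holds serpins 7, 8, 10 to 14 and 17 to 22. Serpins 13 and 14 are named TC030079 and TC030080, and were placed in the run by that field, which gives 5745 for both. Serpins 4 and 5 likewise share the number 4161 and form a pair outside the run. Their genome positions were not used here. The run was set from the numbers, but it was picked out with the levels known. In the order of the numbers, the libraries of highest level also came in blocks: larva for serpin 7, adult for serpins 8 to 14, larva for serpins 18 to 21 and pupa for serpin 22, with serpin 17 at 1 adult read. The 13 summed to 55.6 RPKM for embryos, 1066 for larvae, 460 for pupae and 442 for adults. The 15 other serpins summed to 826, 1883, 2155 and 752 RPKM, so the run made up a smaller part of the serpin RPKM in the embryo than in the larval and adult libraries.

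Step by step, 6 of the 9 compared serpins of the run were higher in the larva and 2 lower, then 0 of 7 were higher in the pupa and 4 lower, and 7 of 12 were higher in the adult and 2 lower. Of the 15 other serpins, 8 of 14 were higher and 2 lower at the first step, 3 and 2 of 15 at the next, and 2 and 8 of 15 at the last. Of all genes, 18.6% were higher and 34.2% lower at the first step, 22.7% and 14.2% at the next and 22.8% and 15.6% at the last, and the counts of the other serpins at the larva to pupa step lie near those shares. These counts rest on members that passed the 1 RPKM filter in at least 1 of the libraries compared, which the members near 0 passed only through the library where they were high, so no difference between the run and the other serpins is read from them.

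**Figure D4:**
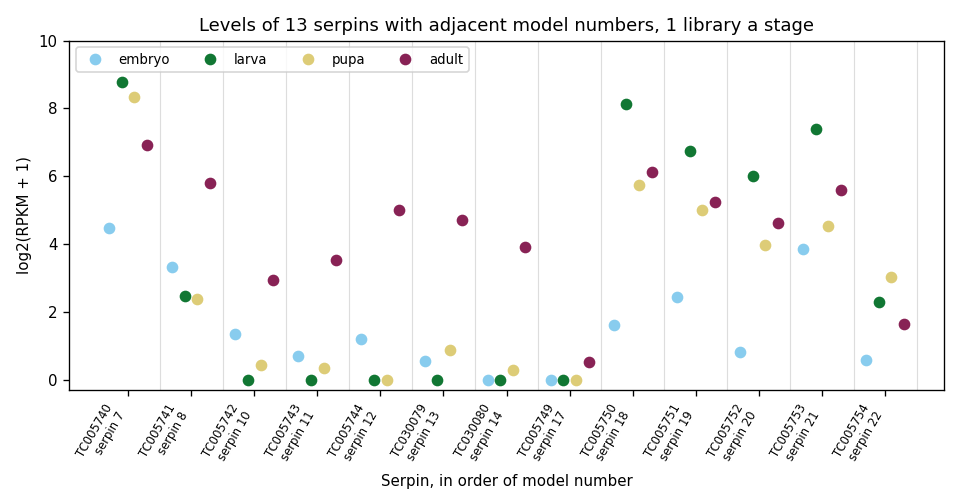
log2(RPKM + 1) of the 13 serpins with adjacent model numbers, in the order of those numbers, in the embryo (light blue), larval (green), pupal (yellow) and adult (purple) libraries. Serpins 10 to 14 lie near 0 except in the adult, at 6.67 to 31.3 RPKM, whereas serpins 18 to 21 are highest in the larva, at 63.9 to 278 RPKM.

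Several serpins also share their first KEGG match. For 20 members the first match was a Tribolium entry, and these 20 fell on 6 entries, of which 5 were matched by more than 1 member. The most shared entry took serpins 7, 10, 12, 13, 14 and 22, of which 4 were highest in the adult, 1 in the larva and 1 in the pupa. Another took serpins 11, 21, 25 and 31, the first highest in the adult and the other 3 in the larva. A further entry took serpins 18, 19, 23 and 24, with serpin 23 highest in the adult and the other 3 in the larva. In each of the 5 shared entries the members differed in their library of highest level. How often this holds for shared entries among all genes was not counted, so nothing is read from it.

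Only unique reads were counted, so stretches identical between copies stay empty, and the deposited coverage, the percent of a model covered by reads, shows where this may matter. Serpin 21 (TC005753) had 821 larval reads but 79.6% coverage, whereas other genes of like read density had a median of 98.2% and a 5th percentile of 83.7%. Its adult coverage was 74.7%, against a median of 94.1% and a 5th percentile of 78.1%. Serpin 18 (TC005750) had 79.6% in the pupa, against 96.1% and 81.4%. Serpin 13 (TC030079), whose match is marked as partial, had 45.4% in the adult, against 86.6% and 67.5%. All 4 of these cases lie in the run of adjacent model numbers, serpin 13 by its description field. By definition 5% of other genes of like density lie under that percentile, so nothing about the run is read from these cases. The part of shared sequence in the RPKM of these 3 serpins was not tested. Serpin 7 (TC005740), the most abundant of the run, was covered to 99.8% in the larva.

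**Figure D5:**
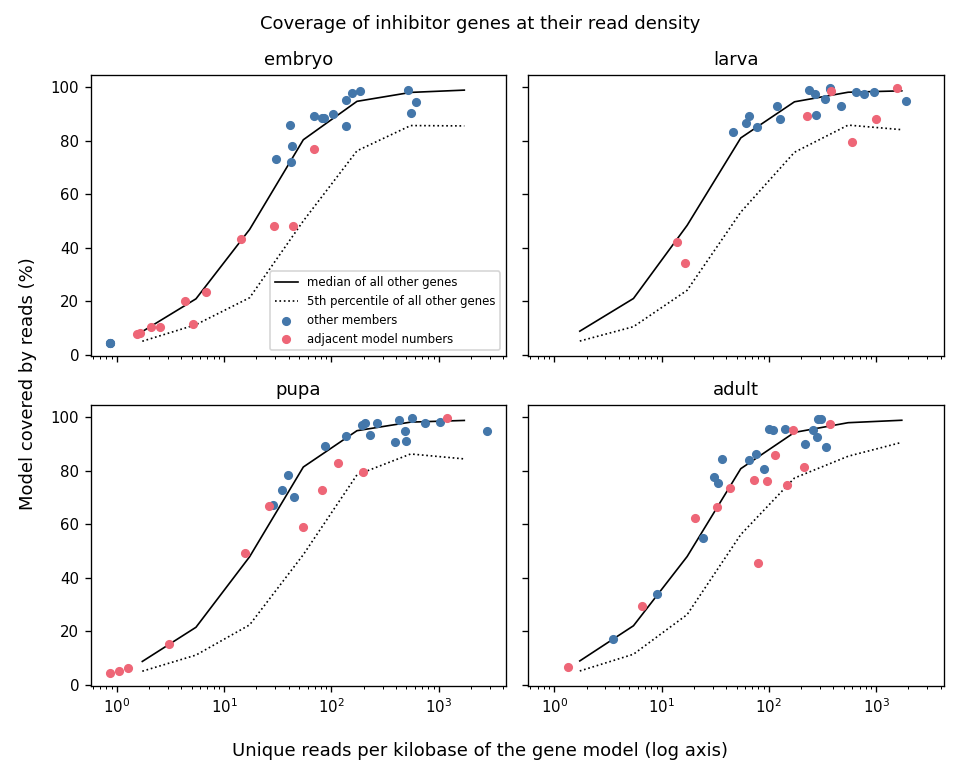
Percent of each gene model covered by reads against unique reads per kilobase (log axis), in each library, for the serpins of the run (red) and the other members (blue), with the median (solid line) and the 5th percentile (dotted line) of all other genes. Most members follow the solid line. Serpin 13 in the adult, at 45.4%, and serpin 21 in the larva, at 79.6%, lie under the dotted line.

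Other inhibitor families lay outside the name rule. A cystatin (TC009844), an inhibitor of cysteine proteases, stood at 45.7, 153, 128 and 67.7 RPKM from embryo to adult, and a gene like the inter-alpha-trypsin inhibitor heavy chain (TC014154) at 6.72, 98.4, 71.3 and 25.5. Both were at least 2-fold higher in the larva than in the embryo, by 3.34-fold (3.09 to 3.62) and 14.6-fold (11.1 to 19.6). A complement-related macroglobulin (TC009375) went the other way at that step without passing 2-fold, at 74.3, 38.9, 92.5 and 35.7 RPKM. In addition, 8 genes carry an inhibitor match only in the KEGG or GO field, 3 of them serpins. Of these 3, TC001913 had 13 adult reads at 9.36 RPKM and TC005746 13 adult reads at 2.74 RPKM, with at most 3 reads in any other library, and TC005748 had 1 larval read. The names of TC005746 and TC005748 fall within the run of numbers described above.

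Genes named as proteases also differed widely between the libraries. Whether each encodes an active enzyme, or a target of these inhibitors, was not tested. Of 160 genes named as serine proteases, 104 of 145 compared stood at least 2-fold above the embryo in the larva and 26 below it, where all genes had 18.6% above and 34.2% below. At the next step 24 of 140 were higher and 76 lower, beside 22.7% and 14.2% of all genes. From pupa to adult 57 of 137 were higher and 48 lower, beside 22.8% and 15.6%. Their RPKM summed to 1515 for embryos, 11857 for larvae, 4288 for pupae and 2427 for adults. Serine proteases and inhibitors were thus both highest in sum in the larva and lowest in the embryo. The chymotrypsin-like proteinase 5A (TC013709), a digestive enzyme, ran at 1.19, 1420, 0.698 and 26.2 RPKM, and serine protease H88 (TC008930) had 0, 0.374, 0 and 210 RPKM. The word cathepsin matched 28 genes, of which 22 of 25 were higher in the larva and 1 lower, 0 of 25 higher in the pupa and 18 lower, and 10 of 21 higher in the adult and 4 lower. The shares of all genes at these steps are those given above for the serine proteases. The 1 lower in the larva, TC000070, is described as a protein that binds cathepsin B mRNA and is no cathepsin. Of these, 13 cathepsin L genes are also gut markers. Cathepsin D (TC004989), a lysosomal aspartic protease matched by the same word, stood at 170, 1528, 526 and 205 RPKM.

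Immune recognition and effector genes had their lowest sums in the embryo and their highest in the larval library. The RPKM of the 6 recognition genes summed to 35.9, 434, 279 and 117 from embryo to adult, and that of the 6 effectors to 5.15, 1182, 214 and 164. All 6 pattern recognition genes, which bind bacterial or fungal cell wall, were higher in the larva than in the embryo, beside 18.6% of all genes. Gram-negative bacteria binding protein 2 (TC011529) ran at 12.6, 243, 180 and 50.6 RPKM, an order of libraries shared with serpin 7 and serpin 4. At the following steps 0 of 6 were higher and 2 lower in the pupa, then 2 higher and 2 lower in the adult, counts too small to set apart from the 14.2% of all genes lower in the pupa and the 22.8% higher and 15.6% lower in the adult. All 6 antimicrobial effectors were also higher in the larva, with the thaumatin-like TC000515 at 0, 495, 2.26 and 23.3 RPKM. In the pupa 1 was higher and 4 lower, beside 22.7% and 14.2% of all genes. In the adult 1 was higher and 2 lower, beside 22.8% and 15.6%.

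Toll pathway genes are given for the same steps. Of the 16 genes, 4 of 15 were higher and 5 lower in the larva, 3 of 16 higher and 2 lower in the pupa, and 2 of 16 higher and 6 lower in the adult. Among all genes, 18.6% were higher and 34.2% lower in the larva, 22.7% and 14.2% in the pupa, and 22.8% and 15.6% in the adult. Most counts of the Toll pathway genes lie near these shares, so nothing is read from them. Spatzle 4 (TC006726), of the family of Toll ligands, stood at 177, 21.98, 98.1 and 2.90 RPKM, and toll-6 (TC004895) at 72.2, 12.4, 91.4 and 4.67. Both were high in embryo and pupa and low in larva and adult, as serpin 2 was. They were named because their differences were among the largest of the list, so no link to serpin 2 is read from this. Spatzle 7 (TC001053) was highest in the larva, at 5.58, 75.0, 15.8 and 11.2 RPKM. Of the clip-type proteases, 2 genes were found by name. The stubble-like TC030071-GA ran at 126, 7.95, 172 and 2.30 RPKM, again low in larva and adult, and the prophenoloxidase activating factor TC001908 stayed under 1 RPKM in all 4 libraries.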

How the data were processed

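Polyadenylated RNA from 4 stages was sequenced on an Illumina Genome Analyzer, per the labels' protocols. The deposited counts are unique reads per gene model, per the file headers, and the deposited RPKM values are those counts scaled by model length and library total. Recomputed RPKM equalled the deposited values to rounding. The deposited coverage percent was used only at matched read density (0.8 to 1.25 times). SAMtools 0.1.19, BSMAP 2.73 and CASAVA 1.8.2 are listed in the submitters' processing notes. The sources used here give no aligner, genome build or annotation for the RNA values. Coordinates were therefore left out. Unlisted genes were taken as 0 reads. No described step marks the strand, so antisense reads cannot be told apart.

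Members and lists were chosen with earlier results of these data known. Steps were compared as log2 of the ratio of (RPKM + 1), which understates differences of low genes, over genes with at least 1 RPKM in 1 library of the step, from 2-fold on. For named genes the plain RPKM ratio is given, its 95% interval being exact and conditional on the summed reads (binomial), or bounds from a floor of 3 reads. The naming rule allowed every member, in full the 6 most abundant per library and the 8 largest differences per step and direction with at least 10 RPKM. Of each other list it allowed the 2 largest differences per direction and the 2 most abundant genes. TC001913, TC005746 and TC005748 were named after their values were seen. Only 2 of 31 members matched RefSeq accessions (icTriCast1.1). The steps were tested on simulated data. Alternatives were other pseudocounts, filters, scalings, thresholds and member sets. Computation used scipy 1.17.1, pandas 2.3.3 and numpy 2.4.6 under Python 3.11.15, and matplotlib 3.10.9 drew the plots.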

Additional observations from a re-analysis of the deposited data

How the results depend on the processing

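No paired analysis was possible because each stage has 1 library and the labels carry no replicate numbers. The embryo to larva count of 4 lower members depended most on the settings: it was 2 with a 5 RPKM filter, 2 after median-ratio rescaling, 0 at a 4-fold threshold, 1 where the whole interval had to lie past 2-fold and 7 with genes matched in the KEGG or GO field added. With those genes added, which was chosen after seeing the data, the 3 members higher in the pupa than in the larva became 6. At 4-fold, 4 in place of 12 members were lower in the adult than in the pupa. The other counts of higher, lower and highest members stayed within 1.5 times under the alternatives run, also without serpins 18 and 21, left out after seeing the data for their low coverage.

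The summed levels moved with the scaling by more than counting error. From embryo to adult they were 738, 3825, 2476 and 1308 after median-ratio rescaling, 1000.4, 4034, 3099 and 1476 with each library's 20 top genes dropped from the totals, and 1118, 3732, 3407 and 1509 as TPM. Their order over the 4 libraries was the same in each. The median log2 ratio of all genes at the embryo to larva step was -0.62 as deposited, -0.01 after median-ratio rescaling and -0.36 without the abundant genes, and the members' median was 1.37, 1.99 and 1.65. No single member compared changed direction past 2-fold. Depth limits the members with few reads: those under 1 RPKM in a library rest on at most 3 reads there.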
